A study of Mus musculus with 16 samples.

Results

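The 9 genes described are the inhibitory receptor genes Pdcd1, Lag3, Havcr2, Tigit, Ctla4, Cd160 and Btla, the ectonucleotidase gene Entpd1 and the transcription factor gene Tox. They were taken by symbol from the 31053 features of the count matrices and followed through the T cell and NK classes of every library. The groups were untreated MC38 tumors, irradiated MC38 tumors, untreated Panc02-SIY tumors and irradiated Panc02-SIY tumors, with 4 libraries each. The MC38 cells came from a colorectal carcinoma, and the Panc02-SIY cells came from a pancreatic adenocarcinoma and carry SIY as a model antigen. Both were grown under the skin of the right flank of C57BL/6J mice, and irradiated tumors received a single CT-guided dose of 12 Gy and were taken 24 h later. Live CD45+ cells, the leukocytes, were sorted from every group. The study asked how radiation changes immune cells in a tumor that responds to radiation through the immune system (MC38) and in one that responds poorly (Panc02-SIY), with its main interest in dendritic cells. Each group has 4 replicates in the labels but 3 animals in the methods, and no source says which animal a library came from, so p-values measure the spread between libraries, which may be technical.

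Inhibitory receptors are surface proteins that lower T cell receptor or NK cell signaling when they meet their ligands. PD-1 (Pdcd1) binds PD-L1 and PD-L2, CTLA-4 (Ctla4) competes with CD28 for CD80 and CD86, LAG-3 (Lag3) binds MHC class II, TIM-3 (Havcr2) has galectin-9 and CEACAM1 among its ligands, and TIGIT (Tigit) binds PVR. CD160 (Cd160) and BTLA (Btla) both bind the TNF receptor family member HVEM. CD39 (Entpd1) degrades extracellular ATP, and TOX (Tox) is a nuclear factor needed for the exhausted state of CD8 T cells under lasting antigen exposure. Regulatory T cells carry CTLA-4 constitutively, and Btla is widely expressed by B cells.

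The genes lie on 7 chromosomes of the mouse genome (GRCm38, GENCODE annotation), all as protein-coding genes. Ctla4 (chr1:60887000-60915832, plus strand) and Pdcd1 (chr1:94038305-94052553, minus strand) share a chromosome, as do Tigit (chr16:43648867-43664146, minus strand) and Btla (chr16:45224315-45257670, plus strand). Cd160 lies at chr3:96798763-96829351 and Tox at chr4:6686353-6991557, both on the minus strand. Lag3 lies at chr6:124904361-124911705 on the minus strand, Havcr2 at chr11:46454935-46481255 and Entpd1 at chr19:40612366-40741602 on the plus strand. Cd160 overlaps Pdzk1 and Tox overlaps the antisense gene Gm11802 on the opposite strand, and each of these partners had 36 UMIs over all T and NK barcodes.

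The 3 genes of the set that changed after radiation in at least 1 T cell population were Cd160, Ctla4 and Havcr2. The 250 bases before an annotated start of each are shown for that reason, in RefSeq's sequence for GRCm38.p6 and read along the gene's strand. Capitals mark matches, on either strand, to 3 motifs that were searched: the core GGAAA of NFAT sites, the AP-1 site TGANTCA and the T-box half-site GGTGTGA. The Cd160 window is that of its downstream start (chr3:96814522-96814771), the Ctla4 window is chr1:60908775-60909024 and the Havcr2 window is chr11:46454681-46454930.
Cd160: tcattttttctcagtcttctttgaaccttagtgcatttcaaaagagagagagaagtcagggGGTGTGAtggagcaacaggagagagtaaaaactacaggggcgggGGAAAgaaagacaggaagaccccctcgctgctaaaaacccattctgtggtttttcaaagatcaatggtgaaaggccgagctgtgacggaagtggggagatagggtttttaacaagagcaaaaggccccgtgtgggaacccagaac
Ctla4: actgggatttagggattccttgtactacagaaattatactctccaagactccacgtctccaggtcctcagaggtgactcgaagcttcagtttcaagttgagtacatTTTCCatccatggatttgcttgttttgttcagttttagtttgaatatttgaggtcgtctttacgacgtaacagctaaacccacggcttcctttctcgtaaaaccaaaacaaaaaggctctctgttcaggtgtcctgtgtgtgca
Havcr2: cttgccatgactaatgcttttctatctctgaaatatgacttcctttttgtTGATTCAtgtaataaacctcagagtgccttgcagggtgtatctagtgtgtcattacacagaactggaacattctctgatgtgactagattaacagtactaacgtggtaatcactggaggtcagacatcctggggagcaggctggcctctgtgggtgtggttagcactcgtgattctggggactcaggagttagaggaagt
The T-box letters were held by the Cd160 window and by 3.33% of 32851 mouse promoter windows of the same length. The AP-1 letters were held by the Havcr2 window and by 6.75% of all windows. GGAAA, held here by the Cd160 and Ctla4 windows, occurred in 55.6% of all windows. The other annotated start of Cd160 (chr3:96829352-96829601) held no match to any of the 3. A match describes letters only.

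The libraries held 28678 barcodes, with 3240877 to 10121198 UMIs per MC38 library and 5327146 to 43776342 per Panc02-SIY library. The MC38 libraries shared most of their barcodes: 9843 barcodes were 2632 distinct sequences, and 769 of these occurred in all 8 libraries. Each barcode was therefore kept once, where it had its highest UMI count among libraries of the same tumor, which left 20768 barcodes, and 13.6 to 57.2% of the UMIs of an MC38 library were set aside against at most 0.975% in Panc02-SIY. T and NK barcodes numbered 36 to 131 per MC38 library and 480 to 1783 per Panc02-SIY library, so MC38 values are far less precise. They made up 22.99% ± 3.87 (SD, n = 4) of CD45+ barcodes in irradiated and 16.2% ± 2.80 in untreated MC38 tumors (exact permutation test, two-sided, p = 0.0571, adjusted p = 0.0762), a difference of 6.77 percentage points that was 1.10 when all barcodes were used. In Panc02-SIY tumors the shares were 49.0% ± 6.25 and 49.6% ± 7.33 (exact p = 0.886). The p53 target genes Cdkn1a, Phlda3 and Ccng1 did not overlap between untreated and irradiated libraries in the T and NK barcodes of either tumor, which matches the treatment labels. Macrophage markers differed between tumors inside the T and NK barcodes: all or all but 1 of 10 had UMIs in every library, and they summed to 587 to 1439 CPM (UMIs in 1000000 UMIs of the library's T and NK sum) in MC38 and to 59.0 to 103 in Panc02-SIY. Before these sums, 445 barcodes first named T cells and 34 first named NK cells had been left out of Panc02-SIY. Their cluster was led by another cell type. No MC38 barcodes were left out in this way. How far the gap between tumors depends on that step was not tested.

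Classes were named from marker genes, and the 9 genes were left out of both the markers and the genes used for clustering. CD8 T cells had 1085 ± 59.3 CPM (UMIs in 1000000 UMIs of the class sum, mean ± SD, n = 4) of Cd3e and 1186 ± 83.7 of Cd8a in untreated Panc02-SIY tumors. Regulatory T cells carried Foxp3 at 499 ± 91.9 CPM there and NK cells Ncr1 at 437 ± 70.8, while Cd3e in NK cells was 17.1 ± 15.2. In Panc02-SIY the classes held 3597 CD8 T, 983 cycling, 373 regulatory T, 494 naive or memory T and 1390 NK barcodes, and in MC38 76 regulatory T and 187 NK barcodes. An MC38 cluster of 58 barcodes met the rule for CD8 T cells but mixed both lineages: Cd4 was at 157 ± 180 CPM beside 997 ± 337 of Cd8a (n = 3 libraries with at least 10 barcodes), against 3.84 ± 4.87 of Cd4 in CD8 T cells of Panc02-SIY. At finer clustering the genes that led it fell into a CD4 T cluster of 41 and a CD8 T cluster of 28 barcodes, so no CD8 T value is given for MC38. The remaining T and NK clusters stayed unnamed because markers of several classes led them or too few were raised. Since clusters were made from these same cells, the levels by class are a description without a test.

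Each gene had its own order over the classes. In Panc02-SIY tumors Pdcd1 was highest in CD8 T cells, at 230.0 ± 39.3 CPM (SD, n = 8 libraries of both treatments), and cycling cells followed at 201 ± 31.0 (n = 7), within that spread. Naive or memory T cells (56.7 ± 17.2) and regulatory T cells (51.6 ± 23.8) came next and did not differ beyond their spread, and NK cells were at 1.48 ± 1.45. Tox, which acts with PD-1 in exhausted cells, ran in a similar order, with 264 ± 60.6 CPM in CD8 T cells, 167 ± 12.6 in cycling cells, 126 ± 44.1 in regulatory T cells, 99.8 ± 39.7 in naive or memory T cells and 48.4 ± 7.74 in NK cells. Entpd1 was at 54.5 ± 21.6 CPM and Cd160 at 22.7 ± 12.2 in NK cells, and Pdcd1 and Btla were at 0 in at least 1 of their 8 libraries.

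Lag3 and Ctla4 marked regulatory T cells as well as CD8 T cells. Lag3 was at 670.4 ± 84.5 CPM in CD8 T cells and 669 ± 152 in regulatory T cells, and at 364 ± 64.2 in cycling cells, 35.5 ± 20.9 in naive or memory T cells and 11.8 ± 5.14 in NK cells. Ctla4 reached 2069 ± 385 CPM in regulatory T cells, where the lowest library had 1588, against 539 ± 99.3 in CD8 T cells, whose highest library had 753. Naive or memory T cells held 247 ± 62.0 CPM of Ctla4 and NK cells 9.25 ± 3.45. In MC38 tumors Ctla4 was at 2601 ± 687 CPM in regulatory T cells (n = 3 libraries with at least 10 barcodes each). Havcr2 was at 232 ± 72.2 CPM in CD8 T cells, 184 ± 51.0 in cycling cells and 166 ± 40.8 in regulatory T cells, which overlapped, and at 5.10 ± 5.53 in NK cells.

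The remaining genes were lower or lay mainly outside CD8 T cells. Tigit was highest in regulatory T cells, at 36.3 ± 25.5 CPM over libraries from 0 to 76.6, and was at 13.98 ± 3.21 in CD8 T cells. Btla was at 31.1 ± 11.2 CPM in naive or memory T cells, 16.5 ± 11.01 in regulatory T cells and 5.26 ± 2.45 in CD8 T cells, all far below the 172 ± 60.4 of B cells. Entpd1 was at 193 ± 23.0 CPM in regulatory T cells and 128 ± 32.5 in CD8 T cells, but neutrophils had 663 ± 63.0 and macrophages 135 ± 43.9. Havcr2 also belonged to myeloid cells, with 113 ± 42.4 CPM in neutrophils and 79.7 ± 12.6 in macrophages of Panc02-SIY and 98.3 to 129.5 in the 8 libraries of macrophages of MC38. Cd160 was highest outside the named classes: cycling cells had 91.1 ± 31.0 CPM and CD8 T cells 83.5 ± 29.0, while the unnamed clusters together had 141 ± 47.0. Among these was a cluster of 636 barcodes led by Klra1, Klra6 and Tcrg-C4 (cluster 4), with 171 ± 68.7 CPM of Cd160.

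**Figure D1:**
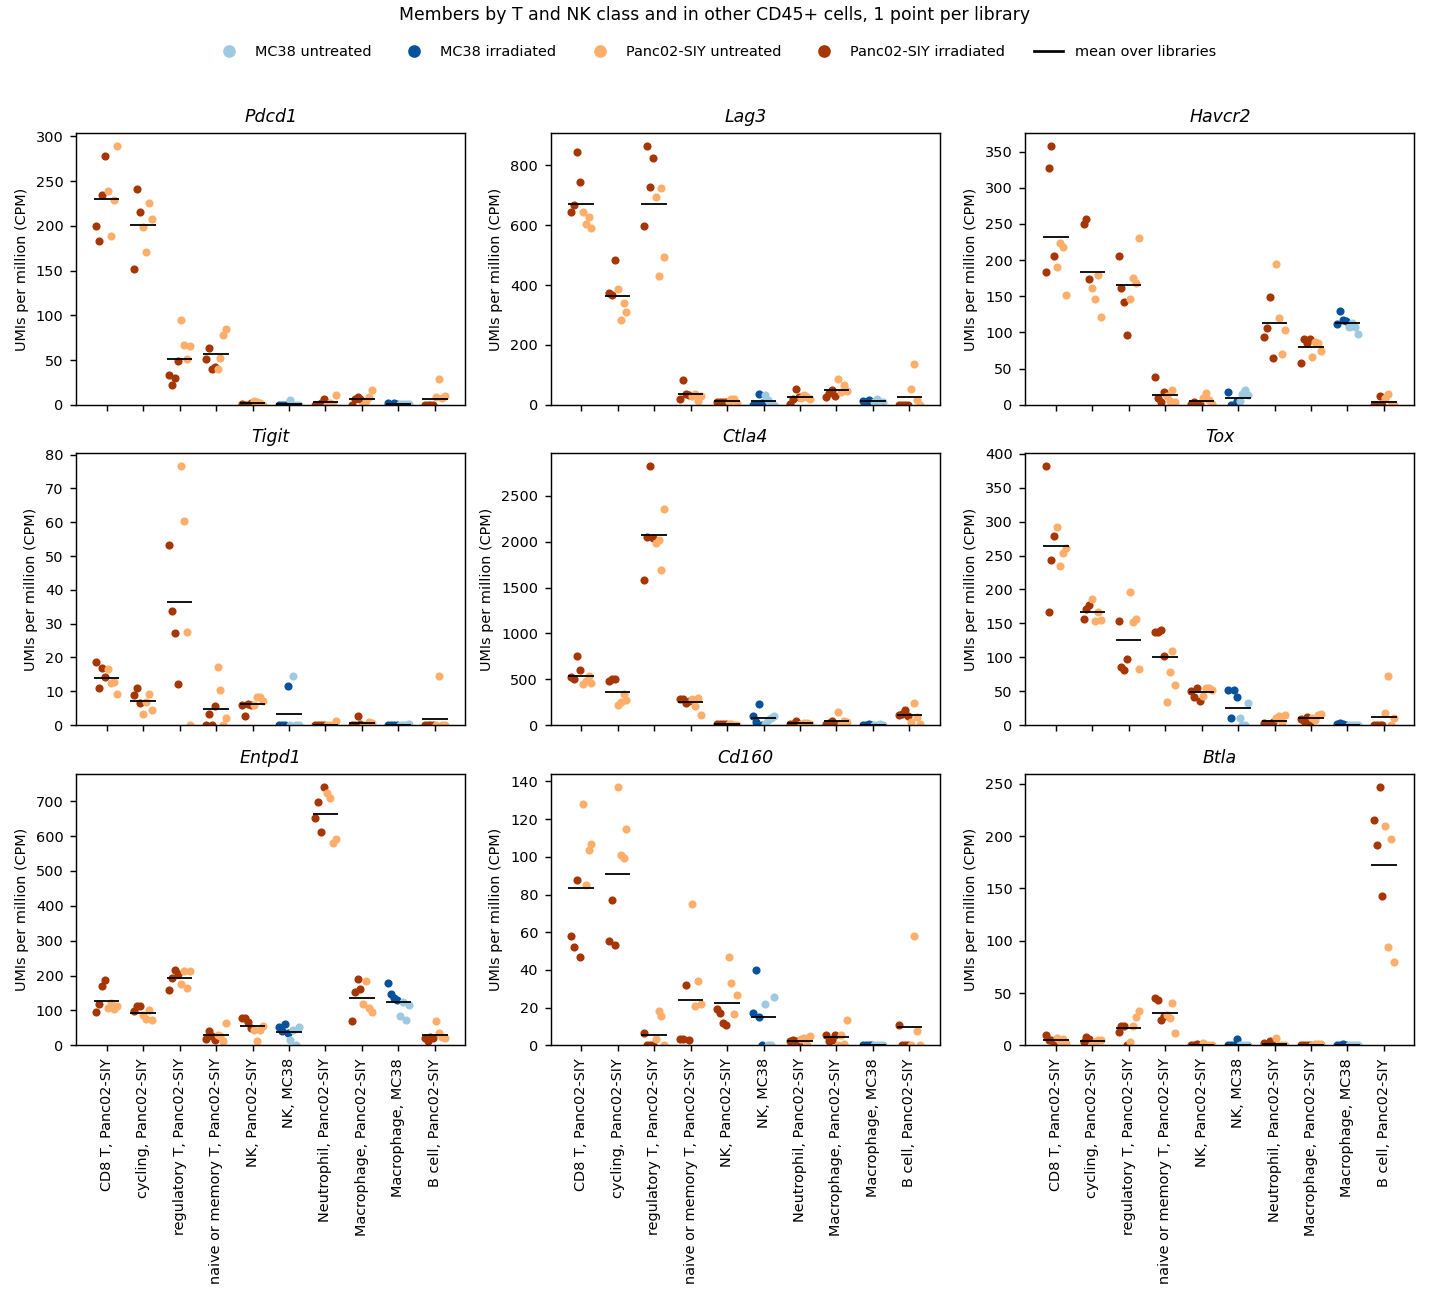
Level of each gene (y axis, CPM of the class sum, each panel with its own scale from 0) by T or NK class and in other CD45+ cells (x axis), with 1 point per library with at least 10 barcodes, colored by group, and a bar at the mean over libraries. MC38 points are drawn under NK cells and macrophages alone. Pdcd1, Lag3, Havcr2 and Tox are high in CD8 T and cycling cells and lower in NK cells, Ctla4 is highest in regulatory T cells, Entpd1 in neutrophils and Btla in B cells.

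Detection per barcode followed these levels once depth was equal. With each barcode thinned to 1500 UMIs, 53.2% ± 1.39 (SD, n = 4 libraries) of CD8 T barcodes in untreated Panc02-SIY tumors had a UMI of Lag3, 46.1% ± 4.70 of Ctla4, 28.8% ± 4.12 of Tox, 27.7% ± 3.62 of Pdcd1, 21.8% ± 1.82 of Havcr2 and 13.2% ± 1.98 of Cd160. In irradiated tumors the shares were 56.7% ± 7.28 for Lag3, 51.4% ± 6.22 for Ctla4, 27.8% ± 7.03 for Tox, 27.2% ± 2.87 for Pdcd1, 26.2% ± 6.24 for Havcr2 and 8.37% ± 2.11 for Cd160. Thinning left out 14 of 1998 untreated and 8 of 1599 irradiated CD8 T barcodes. Neutrophils, which should lack T cell receptors of this kind, were used as a rough background in the same untreated libraries: 3.097% ± 1.45 with Lag3, 2.51% ± 1.87 with Ctla4, 0.375% ± 0.518 with Tox and 0.338% ± 0.404 with Cd160. The source of these UMIs was not tested. The median was 2359 UMIs in Panc02-SIY neutrophils, 4132 in NK barcodes and 7117 in CD8 T barcodes. NK barcodes with Lag3 (1.07% ± 0.189) or Ctla4 (1.295% ± 0.347) in untreated Panc02-SIY tumors were not above the neutrophil level and are not read as expression. Since neutrophil barcodes had fewer UMIs than NK barcodes, that level may be too high for NK cells and cannot show that expression is absent. Tox (8.58% ± 2.73) in NK barcodes was above it. Unthinned, 86.5% of CD8 T barcodes of Panc02-SIY had Lag3 and 64.5% had Pdcd1, as means over 8 libraries.

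The receptor genes and Entpd1 were counted per barcode after thinning. Of the 8 genes other than Tox, a thinned CD8 T barcode had a UMI of 1.80 ± 0.0615 (SD, n = 4) in untreated and 1.91 ± 0.212 in irradiated Panc02-SIY tumors, and 26.9% ± 1.67 and 30.1% ± 7.25 of barcodes had at least 3. CD8 T barcodes with a UMI of Tox carried more of the 8 than those without in 8 of 8 Panc02-SIY libraries. The means with and without Tox were 1.97 and 1.73 in untreated and 2.201 and 1.81 in irradiated tumors. In regulatory T barcodes of Panc02-SIY they were 1.89 and 1.77 in untreated and 1.70 and 1.77 in irradiated tumors. Regulatory T barcodes had 1.81 ± 0.129 of the 8 in untreated tumors and NK barcodes 0.153 ± 0.0190. Barcodes of 1 library are not replicates, so these are descriptions, and whether the genes occurred together more often than their single shares give was not tested.

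In Panc02-SIY tumors, radiation lowered Cd160 over all T and NK cells, and it was the only gene of the 9 to pass the test there. Untreated libraries had 120.0, 103, 110.2 and 129.9 CPM of Cd160 on the TMM-scaled counts of the test, the scale of all values per library beside a test, and irradiated libraries had 46.0, 48.9, 69.0 and 53.8. Every irradiated library was below every untreated one. The log2 fold change was −1.08 ± 0.18 (SE; edgeR quasi-likelihood test, adjusted p = 0.00127), and Cd160 was called in all 31 alternatives, with log2 fold changes from −1.20 to −0.98. Calls required a fold change above 1.3 in either direction together with an adjusted p under 0.1, and 8.15% of the 9598 genes tested were called in this comparison, 4.58% as lower. That share depended on single libraries: it was 2.13% without untreated replicate 4 and 14.6% without untreated replicate 1, and 169 to 517 genes in place of 782 were called without any 1 of untreated replicates 2, 3 and 4 and irradiated replicates 1, 2 and 3. Fewer cells of a type and less RNA per cell cannot be told apart in such sums: CD8 T cells made up 44.5% ± 5.17 of T and NK barcodes in untreated and 33.8% ± 12.54 in irradiated tumors, cycling cells 14.96% ± 7.37 and 4.44% ± 2.84, and NK cells 10.8% ± 4.47 and 25.1% ± 8.34.

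The other 8 genes did not pass over all T and NK cells of Panc02-SIY. Pdcd1 was at 129, 150.3, 161 and 232 CPM in untreated libraries and at 54.2, 109, 123 and 178 in irradiated ones, which overlapped (log2 fold change −0.52 ± 0.33, adjusted p = 0.395, edgeR). Each library was also taken as its deviation from the mean of its group, over 3121 genes. These deviations correlated at 0.108 to 0.766 between untreated and irradiated Panc02-SIY libraries of the same replicate number. Those of unlike numbers correlated at −0.640 to 0.418, which overlapped, and no label says that a number marks a pair. Deviations within a group cancel out, so the values of like and unlike numbers depend on each other. With the replicate number as a block, Pdcd1 was called as well (−0.59 ± 0.17, adjusted p = 0.0395, edgeR), as was Cd160 (−1.08 ± 0.18, adjusted p = 0.00104). The Pdcd1 call thus depends on a pairing that is not known. Tox had a log2 fold change of −0.33 ± 0.15 (adjusted p = 0.223), with 177, 180.3, 180.5 and 199.9 CPM in untreated and 136, 120.1, 143 and 185 in irradiated libraries. Without irradiated replicate 4, which had 185, Tox was called at −0.45 (adjusted p = 0.0819). Lag3, Havcr2, Tigit, Ctla4, Entpd1 and Btla had log2 fold changes from −0.11 to 0.29. Irradiated replicate 1 was the lowest irradiated library for Pdcd1, Lag3 (187 against 401 to 460.4) and Havcr2 (58.7 against 133 to 195), and its CD8 T share was also the lowest, at 16.2% of T and NK barcodes.

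**Figure D2:**
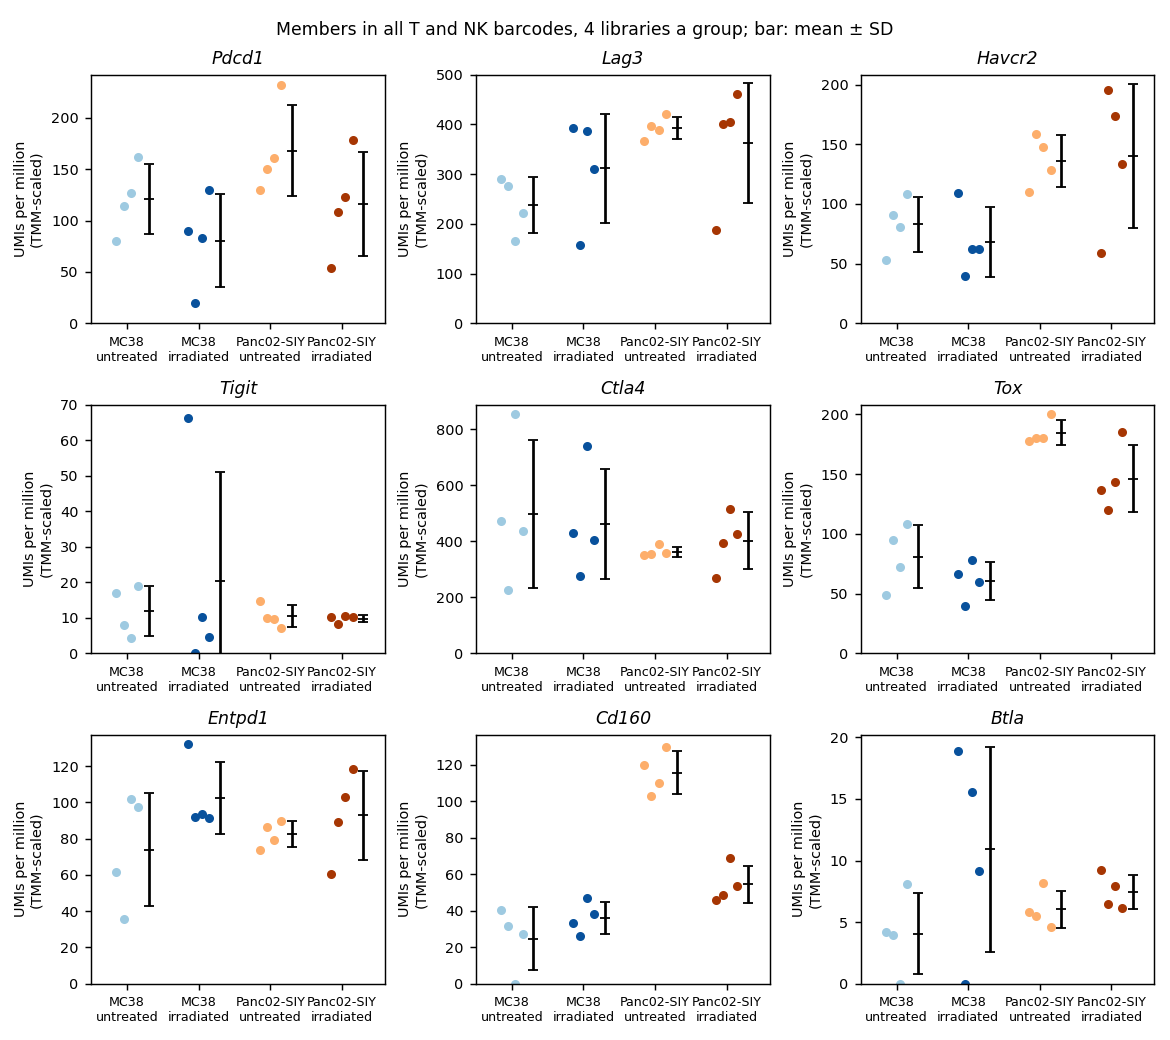
Level of each gene over all T and NK barcodes (y axis, TMM-scaled CPM, from 0) in the 4 groups (x axis), with 1 point per library, 4 libraries per group, and a bar for the mean ± SD. Irradiated Panc02-SIY libraries sit at 46.0 to 69.0 for Cd160, below all untreated ones, and Tox is lower in MC38 than in Panc02-SIY in all libraries.

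The fall of Cd160 was present within classes of Panc02-SIY tumors. In CD8 T cells it went from 127, 86.2, 105 and 115 CPM in untreated to 55.7, 52.0, 83.1 and 47.2 in irradiated libraries, with no overlap (log2 fold change −0.86 ± 0.17, adjusted p = 0.0320, edgeR). Among 9402 genes tested in CD8 T cells 1.72% were called (0.815% without irradiated replicate 3), and Cd160 was the 1 of the 9 genes among them. The call was lost without untreated replicate 4 (−0.83, adjusted p = 0.115), without irradiated replicate 1 (−0.85, adjusted p = 0.109) and with all barcodes (−0.86, adjusted p = 0.151). CD8 T cells spanned 5 clusters whose shares varied between libraries: cluster 1 held 6.52 to 46.6% of the CD8 T barcodes of an untreated library and 13.8 to 75.7% of those of an irradiated one. In CD8 T cells Havcr2 was at 164 to 228 CPM in untreated and at 177, 325, 339.8 and 206 in irradiated libraries (log2 fold change 0.41 ± 0.21, adjusted p = 0.497), and it was called with the replicate block (0.38 ± 0.095, adjusted p = 0.0206). The other 7 genes had log2 fold changes between −0.14 and 0.33 in CD8 T cells and were not called.

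In cycling cells 3 of the 8 members tested were called, where 16.1% of all 8856 genes were (9.81% without irradiated replicate 4). Cd160 fell there from 139.6, 102, 103 and 123 CPM to 52.1, 73.4 and 51.4 (log2 fold change −0.97 ± 0.17, adjusted p = 0.000977, edgeR). Ctla4 rose from 221, 250.3, 351 and 297 to 453, 477 and 480.0, with every irradiated library above every untreated one (0.74 ± 0.13, adjusted p = 0.00140). Havcr2 rose from 164, 148, 187 and 131 to 235, 245 and 167, where the groups overlapped (0.45 ± 0.15, adjusted p = 0.0570), and this call was lost in DESeq2 (adjusted p = 0.113), with all barcodes (adjusted p = 0.199) and without any 1 of untreated replicates 2 and 4 and irradiated replicates 2 and 3 (adjusted p 0.120 to 0.238). Irradiated replicate 1 had 6 cycling barcodes and did not enter the fit, so 3 irradiated libraries were compared with 4. Foxp3, the marker of regulatory T cells, averaged 2.89 CPM in untreated and 7.04 in irradiated cycling cells, and Cd8a 713 and 869; the part of cell composition in the rise of Ctla4 was not tested. Ctla4 averaged 252 CPM in untreated and 506 in irradiated libraries of the cycling cluster led by histone genes and Mki67 (cluster 6).

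**Figure D3:**
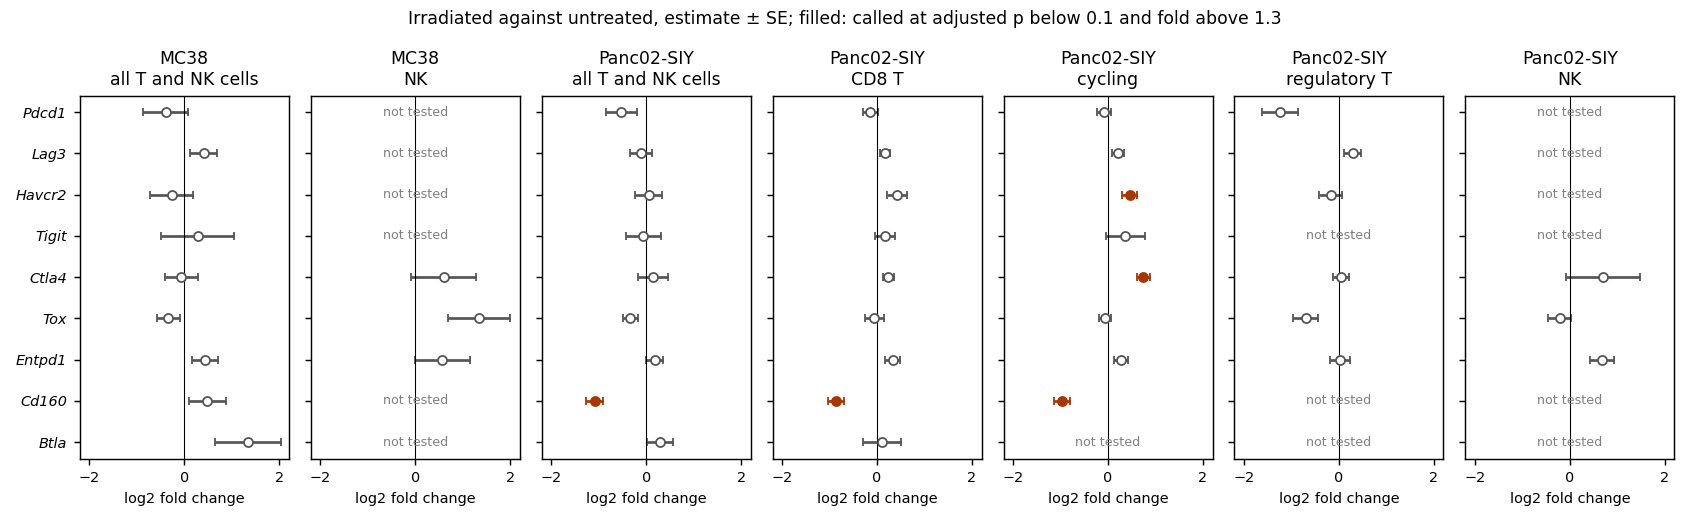
Log2 fold change of each gene, irradiated against untreated (x axis, point ± SE), for 7 combinations of tumor and T or NK population, with filled points for calls and "not tested" for genes under the count filter or populations too small. Cd160 is below 0 in all T and NK cells, CD8 T cells and cycling cells of Panc02-SIY, and Ctla4 and Havcr2 are above 0 in cycling cells.

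Cd160 was lower in irradiated than in untreated libraries in every cluster that could be compared. Of 14 Panc02-SIY clusters with at least 10 barcodes in 3 or more libraries of each treatment, the mean Cd160 level was lower in irradiated libraries in 14, and the libraries did not overlap in 5. Of 5871 genes with a mean of at least 20 CPM in these clusters, 1.96% were lower in all of them and 2.88% did not overlap in at least 5. In the Klra1-led cluster 4 described above, with Ly6c2 also among its leading genes, the mean went from 229.7 to 112 CPM. In the cluster led by Gzmc and Ncr1 (cluster 3) it went from 174 to 128. In the cluster led by Ccl1, Xcl1 and Ifng (cluster 15) it went from 265 to 224. Among CD8 T clusters, means went from 144 to 94.7 in cluster 2 and from 88.4 to 41.6 in cluster 5. Ctla4 had the higher mean in irradiated libraries in 13 of the 14 clusters, as 6.11% of genes had in 13 or more, with no overlap in 2, as 31.3% of genes had in 2 or more. Havcr2 and Entpd1 were higher in 11 each (22% of genes in 11 or more), Pdcd1 was lower in 10 of 14 (16.1% of genes in 10 or more) and Tox in 7. The clusters come from the same libraries and are not independent of each other, so no test was made of these counts.

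**Figure D4:**
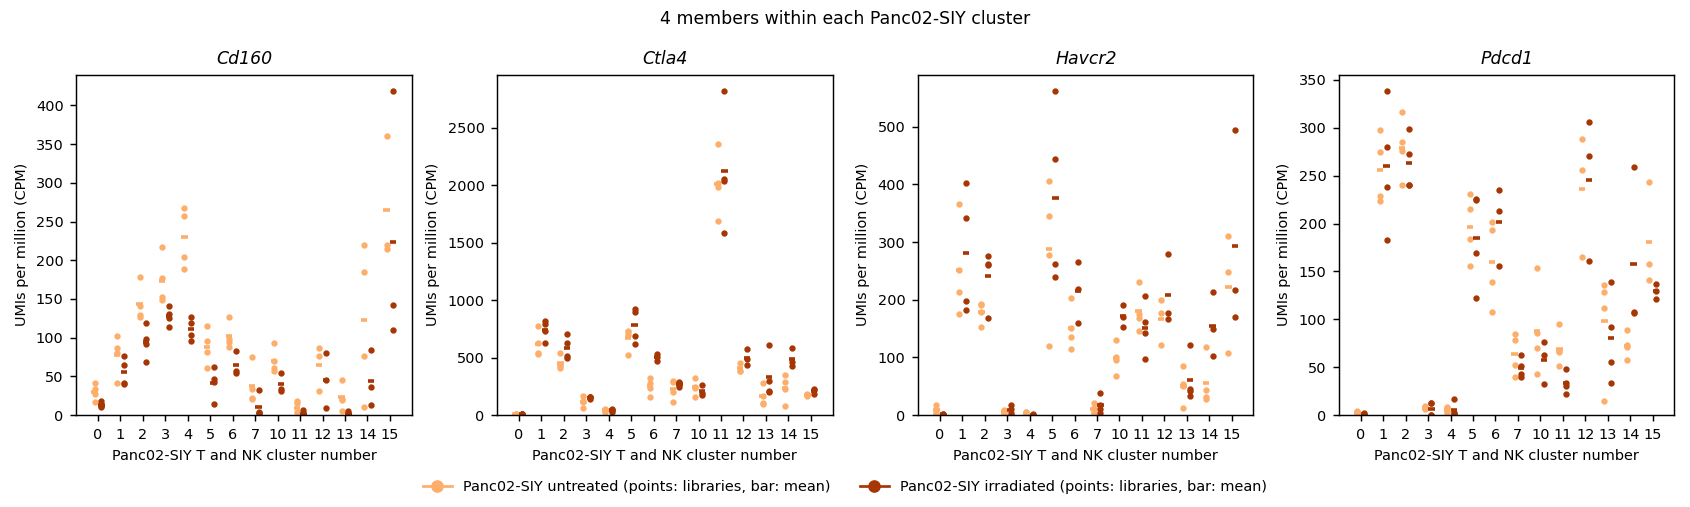
Level of Cd160, Ctla4, Havcr2 and Pdcd1 (y axis, CPM of the cluster sum, from 0) in each of 14 Panc02-SIY T and NK clusters (x axis, cluster number), with points for untreated and irradiated libraries and a bar at each mean. The irradiated mean of Cd160 is the lower one in all 14 clusters, and that of Ctla4 is the higher one in 13.

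Regulatory, naive or memory T and NK cells of Panc02-SIY gave no call for a member in the main fit. In regulatory T cells 6 of the 9 genes passed the count filter, and 0.383% of 3657 genes were called. Pdcd1 in regulatory T cells was at 95.2, 66.7, 50.7 and 71.1 CPM in untreated and at 32.3, 22.0, 29.0 and 49.0 in irradiated libraries, which did not overlap, but these values rest on 4 to 26 UMIs per library and the test was not passed (log2 fold change −1.24 ± 0.38, unadjusted p = 0.00268, adjusted p = 0.330, edgeR). Ctla4 was at 2061 ± 357 and 2081 ± 475 CPM in untreated and irradiated regulatory T cells, a log2 difference of 0.05 ± 0.17. In naive or memory T cells (0.564% of 4253 genes called) only Pdcd1, Ctla4 and Tox could be tested, and Tox was at 35.9, 80.3, 109 and 60.3 in untreated and 134, 134, 136 and 101 in irradiated libraries (0.79 ± 0.26, adjusted p = 0.243). Tox was called there without untreated replicate 3 (1.07, adjusted p = 0.0529). In NK cells (0.0406% of 4922 genes called) only Ctla4, Tox and Entpd1 could be tested, and Entpd1 was at 38.4 ± 17.9 and 64.4 ± 12.5 (0.68 ± 0.25, adjusted p = 0.600). With finer clusters Entpd1 was called in NK cells (0.94, adjusted p = 0.0166). Cd160 did not pass the count filter in these 3 classes. In NK cells it had 59 UMIs in untreated and 59 in irradiated libraries in all, at 29.5 ± 12.0 and 13.7 ± 3.92 CPM.

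In MC38 tumors no member passed after radiation. The 9 log2 fold changes over all T and NK cells ranged from −0.39 for Pdcd1 to 1.35 for Btla (adjusted p from 0.449 to 0.980, edgeR), and 1.13% of the 9598 genes were called, with 0.258% without irradiated replicate 3 and 1.71% without untreated replicate 4. Cd160, which fell in Panc02-SIY, was at 40.2, 31.5, 0 and 27.0 CPM in untreated and at 33.1, 26.3, 46.8 and 38.1 in irradiated MC38 libraries (0.48 ± 0.39, adjusted p = 0.660). The library at 0 held 234275 UMIs, which allows a level of up to 12.8 CPM. The difference between the tumors' radiation effects on Cd160 was 1.56 ± 0.43 (unadjusted p = 0.00128), and it did not pass over all genes (adjusted p = 0.855). No gene of the 9598 was called in that interaction test (percent called 0), with 472 at an unadjusted p under 0.05 and 2 called by DESeq2. The value for Btla rests on 6 UMIs in untreated and 16 in irradiated libraries. In NK cells of MC38 (0.67% of genes called) Ctla4, Tox and Entpd1 had log2 fold changes of 0.60 ± 0.69, 1.34 ± 0.65 and 0.57 ± 0.57, none called. The mixed CD8 and CD4 T cluster and the regulatory T, cycling and naive or memory T cells of MC38 had too few libraries with 10 barcodes for a test.

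Between the tumors, Tox was lower in MC38 than in Panc02-SIY before and after radiation. Untreated MC38 libraries had 48.7, 94.6, 72.0 and 108 CPM over all T and NK cells against 177 to 199.9 in untreated Panc02-SIY libraries (log2 fold change −1.21 ± 0.20, adjusted p = 0.000172, edgeR). Irradiated MC38 libraries had 66.2, 39.4, 77.9 and 59.5 against 120.1 to 185 (−1.21 ± 0.21, adjusted p = 0.000333). The groups did not overlap in either comparison, and Tox was called in all alternatives of both. Cd160 was lower in untreated MC38 (24.7 ± 17.4 against 116 ± 11.8, −2.08 ± 0.29, adjusted p = 3.26e-05). After radiation the difference in Cd160 was −0.52 ± 0.28 (adjusted p = 0.242). Of all genes, 20.9% were called between untreated tumors and 19.9% between irradiated tumors. Macrophage markers moved with the tumor in these cells (587 to 1439 against 59.0 to 103 CPM), and their part in these differences was not tested. These values were taken after barcodes of a cluster led by another cell type had been left out of Panc02-SIY alone. CD8 T cells, where Tox was highest, made up 44.5% ± 5.17 of T and NK barcodes in untreated and 33.8% ± 12.54 in irradiated Panc02-SIY. The mixed MC38 cluster, whose CD8 T part is not known, made up 11.8% ± 1.93 and 10.7% ± 4.10. NK cells made up 37.7% ± 10.5 and 41.3% ± 15.3 in MC38, against 10.8% ± 4.47 and 25.1% ± 8.34 in Panc02-SIY. The part of cell composition in the differences between tumors was not tested.

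Lag3 and Havcr2 also differed between tumors, less firmly. Lag3 was at 290.1, 276, 165 and 222 CPM in untreated MC38 and 367 to 420.5 in untreated Panc02-SIY (log2 fold change −0.70 ± 0.26, adjusted p = 0.0851, edgeR), with no overlap. The call was kept in 17 of 31 alternatives, which gave adjusted p from 0.0164 to 0.178. Some of these alternatives left out a library that was not compared. Leaving out any 1 untreated library lost the Lag3 call, except for replicate 1 of MC38 (adjusted p 0.102 to 0.178 where lost). Havcr2 was at 109, 39.4, 62.3 and 62.5 in irradiated MC38 and 58.7, 195, 173 and 133 in irradiated Panc02-SIY, which overlapped (−1.05 ± 0.38, adjusted p = 0.0780). It was called in 19 of 31 alternatives (adjusted p from 0.00111 to 0.221). Leaving out any 1 irradiated library lost the Havcr2 call, except for replicate 1 of either tumor (adjusted p 0.101 to 0.196 where lost). Between untreated tumors Havcr2 was not called (−0.73 ± 0.36, adjusted p = 0.198). It was called with only the 2 groups compared (−0.70, adjusted p = 0.0417) and without irradiated Panc02-SIY replicate 1 (−0.70, adjusted p = 0.0353). Pdcd1, Tigit, Ctla4, Entpd1 and Btla were not called between tumors under either treatment over all T and NK cells.

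Ctla4 was called higher in NK cells of MC38 than in those of Panc02-SIY, where its detection was not above the neutrophil level, on few UMIs. A Panc02-SIY cluster led by Gzmc and Ncr1 (cluster 3) lay outside this NK class. Its mean Ctla4 level was 116 CPM of the cluster sum in untreated and 153 in irradiated libraries. Whether the NK classes of both tumors hold like cells was not tested. Untreated MC38 libraries had 18.0, 59.1, 81.9 and 111 CPM in NK cells and untreated Panc02-SIY libraries 3.89 to 10.3 (log2 fold change 3.24 ± 0.85, adjusted p = 0.0116, edgeR), with no overlap. The MC38 values rest on 3, 4, 4 and 16 UMIs, and the call was lost without untreated replicate 4 (2.52, adjusted p = 0.141). Irradiated MC38 libraries had 107, 31.6, 260.2 and 6.22 against 8.64 to 12.9 in Panc02-SIY (3.15 ± 0.64, adjusted p = 0.00126), and these overlapped, with replicate 4 of MC38 below every Panc02-SIY library. Of the 41 UMIs of Ctla4 in irradiated MC38 NK cells 31 came from replicate 3, and the call was lost without it (1.58, adjusted p = 0.146) and with finer clusters (1.45, adjusted p = 0.443). Foxp3 was at 0 in all 8 MC38 NK sums, which allow levels of up to 16.5 to 59.9 CPM, so the zeros cannot show that Foxp3 was absent. Macrophages of MC38, whose markers are raised in these barcodes, had 3.86 ± 2.82 CPM of Ctla4. Cd3e had 3, 2, 5 and 0 UMIs in the NK cells of untreated and 17, 1, 0 and 0 in those of irradiated MC38 replicates 1 to 4. The part of RNA from other cells in these values was not tested. Tox in NK cells was lower in untreated MC38 (12.0, 0, 0 and 34.6 against 41.0 to 52.6, −1.57 ± 0.53, adjusted p = 0.0321), on 7 UMIs in all. The libraries at 0, replicates 2 and 3, allow levels of up to 43.3 and 59.9 CPM, so they cannot show that Tox was absent. The Tox call was lost without untreated replicate 1 and with thinned library sums (adjusted p = 0.176 and 0.306), and Tox was not called between irradiated tumors (−0.02 ± 0.40). Of the genes tested in NK cells 23.1% were called between untreated and 23% between irradiated tumors.

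Other genes tied to exhaustion moved in few cases. Of a list of 32 genes of this kind 30 were tested over all T and NK cells, and after radiation of Panc02-SIY 3 were higher and 0 lower: Eomes, a T-box factor of NK and memory cells (log2 fold change 1.07 ± 0.34, adjusted p = 0.0969, edgeR), the inhibitory receptor Lilrb4a (0.61 ± 0.17, adjusted p = 0.0402) and Prdm1, which encodes Blimp-1 (0.46 ± 0.15, adjusted p = 0.0740). Of all genes 3.56% were called higher, and the list's median was 0.16 beside 0.02 for all genes tested. Eomes is also among the markers used to name NK cells. NK cells made up 10.8% ± 4.47 of T and NK barcodes in untreated and 25.1% ± 8.34 in irradiated Panc02-SIY tumors. The part of cell composition in the rise of Eomes was not tested. In MC38 Lilrb4a was higher (1.23 ± 0.27, adjusted p = 0.0339) and Ptpn6, the phosphatase SHP-1, lower (−0.70 ± 0.17, adjusted p = 0.0684), where 0.677% of all genes were higher and 0.448% lower, with a median of 0.15 beside −0.02. CD8 T cells of Panc02-SIY had 2 of 31 higher, the costimulatory receptor Tnfrsf9 (0.80 ± 0.13, adjusted p = 0.00157) and Prdm1 (0.58 ± 0.14, adjusted p = 0.0630), and 0 lower, where 1.02% of all genes were higher. Regulatory T cells had 1 of 21 higher, Bhlhe40 (0.96 ± 0.22, adjusted p = 0.0403), where 0.355% of all genes were higher and 0.0273% lower. No gene of the list was called after radiation in naive or memory T cells of Panc02-SIY (median 0.13) or in NK cells of Panc02-SIY (0.03) and MC38 (0.12).

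In cycling cells of Panc02-SIY 8 of 29 were higher and 0 lower after radiation, where 8.62% of all genes were higher and 7.49% lower, with a median log2 fold change of 0.31 beside 0.04 for all genes. The 5 with the largest changes were Maf (1.58 ± 0.29), Ikzf2 (1.03 ± 0.14), Nt5e, which encodes CD73 and acts after CD39 on extracellular nucleotides (0.98 ± 0.30), Slamf6 (0.96 ± 0.36) and Cd200r1 (0.79 ± 0.30), at adjusted p from 8.63e-05 to 0.0980 (edgeR). Maf and Ikzf2 are also expressed by regulatory T cells, whose marker Foxp3 was at 2.89 and 7.04 CPM in these cells.

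Between the tumors, exhaustion genes were called in both directions. Over all T and NK cells 7 of 30 were higher and 4 lower in untreated MC38 than in untreated Panc02-SIY, where 10.8% of all genes were higher and 10.1% lower. The largest differences were those of Cd38 (log2 fold change −1.76 ± 0.43), Maf (1.298 ± 0.43), Nfatc1 (−1.29 ± 0.16), Tnfrsf9 (1.14 ± 0.20) and Ikzf2 (1.13 ± 0.29). Between irradiated tumors 4 were higher and 6 lower (10.4% and 9.42% of all genes), led by Lilrb4a (1.59 ± 0.21), Nt5e (1.13 ± 0.23), Nfatc1 (−0.97 ± 0.16), Tcf7 (−0.87 ± 0.32) and Tnfrsf9 (0.79 ± 0.20). In NK cells 6 of 21 were higher and 7 lower in untreated MC38 (12.6% and 10.5% of all genes), led by Rgs16 (3.68 ± 0.78), Prdm1 (−2.22 ± 0.61), Adora2a (−2.13 ± 0.41), Tnfrsf9 (2.06 ± 0.49) and Ptpn6 (1.93 ± 0.25). Between irradiated tumors NK cells had 4 higher and 3 lower (13.3% and 9.71% of all genes), led by Lilrb4a (2.42 ± 0.29), Rgs16 (2.07 ± 0.70), Nt5e (1.77 ± 0.57), Prdm1 (−1.52 ± 0.49) and Ptpn6 (1.29 ± 0.27). Macrophage markers were also higher in the T and NK barcodes of MC38, NK barcodes included. Their part in the differences of this list was not tested.

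Among 13 ligands of the receptors 9 were tested, and Cd80, a ligand of CTLA-4 and CD28, rose after radiation in all T and NK cells and in 3 classes of Panc02-SIY. Its log2 fold change was 1.63 ± 0.21 over all T and NK cells (adjusted p = 2.10e-05, edgeR), 1.66 ± 0.22 in CD8 T cells (adjusted p = 0.000187), 2.33 ± 0.47 in regulatory T cells (adjusted p = 0.0114) and 2.07 ± 0.32 in cycling cells (adjusted p = 0.000370). In cycling cells Cd274, which encodes PD-L1 (1.18 ± 0.26, adjusted p = 0.0123), Pvr, a ligand of TIGIT (0.90 ± 0.30, adjusted p = 0.0539), and Lgals9 (0.53 ± 0.19, adjusted p = 0.0703) rose as well, so that 4 of 9 ligands were higher there beside 8.62% of all genes. Lgals3, which encodes galectin-3, fell in naive or memory T cells of Panc02-SIY (−0.91 ± 0.24, adjusted p = 0.0921, edgeR). It was the 1 call among 5 ligands tested, whose median was −0.40, where 0.376% of all genes were lower. In regulatory T cells the median of 6 ligands was −0.34, with Cd80 the 1 call, where 0.355% of all genes were higher. No ligand was called in NK cells of Panc02-SIY or in MC38 after radiation. Between tumors H2-Aa and H2-Ab1, which encode the MHC class II ligand of LAG-3, were higher in T and NK barcodes of MC38 (2.15 ± 0.28 and 2.23 ± 0.23 untreated, 2.95 ± 0.27 and 2.89 ± 0.23 irradiated), as were the macrophage markers, and Cd80 was higher in untreated MC38 (1.25 ± 0.37, adjusted p = 0.0247). In NK cells 4 of 6 ligands were higher in MC38 under each treatment, H2-Aa, H2-Ab1, Lgals3 and the PD-1 ligand gene Pdcd1lg2, with log2 fold changes from 1.60 to 3.00. Of all genes tested in NK cells, 12.6% were higher in untreated and 13.3% in irradiated MC38. Macrophage markers in NK barcodes summed to 609 to 1328 CPM in untreated MC38 and 33.2 to 141 in untreated Panc02-SIY. In irradiated tumors they summed to 652 to 1253 and 57.8 to 107. The part of macrophage RNA in these ligand values was not tested.

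Targets of p53 were counted in the same fits, without a test between classes. All 9 tested targets were higher after radiation over all T and NK cells (3.56% of all genes), in CD8 T cells (1.02%) and in cycling cells (8.62%) of Panc02-SIY, with medians of 1.52, 1.47 and 2.29 on the log2 scale. Over all T and NK cells of MC38 6 of 9 were higher (0.677% of all genes). Regulatory T cells of Panc02-SIY had 4 of 7 (0.355%) and naive or memory T cells 2 of 5 higher (0.188%). In NK cells 0 of 6 were called in Panc02-SIY, with a median of 0.31, and 4 of 6 were higher in MC38 (0.528%), with a median of 1.64, and 2 of 6 passed the test of that difference between tumors (0.142% of all genes).

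Genes most like each member over 44 sums of a library and class (log2 of CPM + 10, 5978 genes) are given by Pearson correlation. These correlations describe sums that share libraries and classes, mostly from Panc02-SIY, and carry no test. Pdcd1 ran with Cd8a (Pearson r = 0.92), Cd8b1 (0.92) and Cd3g (0.92), and Tox with the chemokine receptor gene Cxcr6 (0.87), Cd3g (0.85) and Pdcd1 (0.84). Lag3 and Havcr2 were each other's nearest gene (0.94), followed by Ehd1 (0.92) and S100a6 (0.91) for Lag3 and by S100a6 (0.91) and Csf1 (0.89) for Havcr2. Ctla4 was nearest to Ly6a (0.94), Sdcbp2 (0.94) and Glrx (0.92), Tigit to Tnfrsf1b (0.84), Prkch (0.80) and Lrba (0.78), and Entpd1 to Ubash3b (0.84), Itgav (0.84) and Nucb1 (0.83). Btla ran with the naive and memory genes Il6ra (0.88) and Slamf6 (0.87) and with Faah (0.86). Cd160 had the loosest neighbors of the 9: Mrpl58 (0.77), Rps15a (0.77) and the NK receptor gene Klrc1 (0.76).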

How the data were processed

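The authors deposited raw UMI counts per gene and barcode from 10x 3' v3 libraries, made per the submitters' processing notes with Cell Ranger 3.1.0 and bcl2fastq 2.20.0 on mm10. Each barcode was kept once per tumor. Barcodes were clustered with scanpy 1.11.5 and leidenalg 0.10.2 (2000 variable genes without the 9 members, 30 components, 20 neighbors, resolution 1). The 9645 barcodes first named T or NK were clustered again per tumor, and 9166 remained once barcodes of a cluster led by another cell type were left out. A cluster took the class with the largest share of raised markers, at least 3. After the data were seen, T, NK and subclass markers were counted as 1 set for the first naming, and a Panc02-SIY cluster led by C1qa was removed. Scrublet's automatic threshold marked 82 barcodes (under 0.5%), so doublets were kept and removing the top 5% per library was an alternative. Counts summed per library and class (at least 10 barcodes, at least 3 libraries per group) were fitted with edgeR 4.0.16 in R 4.3.3. The fit used filterByExpr, TMM and robust quasi-likelihood F tests, with Benjamini-Hochberg adjustment over all genes of the fit. It was also run on simulated counts, for the radiation comparison of each tumor and without a baseline difference between tumors. DESeq2 1.42.0, scaling, filters, thresholds, thinning, finer clusters and leaving out each library were alternatives. The SE of a log2 fold change is its absolute value divided by the square root of F, which takes in the spread between libraries. Floors (3 counts) cover counting error only.

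Over all T and NK cells, deviations from the group mean correlated at 0.108 to 0.766 in 4 of 4 pairs of same-numbered Panc02-SIY libraries. Those of unlike-numbered libraries correlated at −0.640 to 0.418. Blocked values are therefore given, though no label says that a number marks a pair. For MC38 the same-numbered correlations ran from −0.093 to 0.222. The fit over all T and NK cells used the same block for both tumors. The members and the lists were chosen with earlier results of these data known. All 9 members are named, with called genes of the exhaustion and ligand lists (at most 5 per list and comparison by size of change), Cdkn1a, Phlda3 and Ccng1 of the p53 targets, and the 3 genes most like each member. Clusters compared one by one were chosen after their values were seen.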

Additional observations from a re-analysis of the deposited data

Results flagged for a closer look

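In 7 of 92 groups of 4 libraries tested (7.61%), 1 library stood apart from the other 3 by Dixon's criterion, and chance alone marks about 1 group in 20. All values are TMM-scaled CPM. Over all T and NK cells Tigit was 66.2 in irradiated MC38 replicate 1, on 14 UMIs, against 0 to 10.4 in the other irradiated MC38 libraries. Entpd1 in the same library was 132 against 91.5 to 93.5. Tigit in irradiated Panc02-SIY replicate 2 was 8.32 against 10.2 to 10.6. Tox in untreated Panc02-SIY replicate 4 was 199.9 against 177 to 180.5. In CD8 T cells Lag3 was 611 in untreated Panc02-SIY replicate 2 against 636 to 639.8. In NK cells Tox was 41.0 in untreated Panc02-SIY replicate 1 against 51.5 to 52.6. In naive or memory T cells Tox was 101 in irradiated Panc02-SIY replicate 4 against 134 to 136.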

How the results depend on the processing

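The count of members called after radiation of Panc02-SIY was 1, and 2 with the replicate block (Cd160 and Pdcd1) and 1 to 2 when 1 library was left out. After radiation of MC38, and for the difference of the tumors' effects, it was 0 in every alternative that left out a library. Between untreated tumors it was 3, and 2 to 4 when 1 library was left out. Between irradiated tumors it was 2, and 1 at an adjusted p below 0.05, with no filter, with only the 2 groups compared, with thinned sums and without the cycling clusters (added after seeing the data), and 1 to 3 when 1 library was left out. Within classes it was 7 over 9 comparisons, 4 with the cell filter, where 6 comparisons could be fitted, and 4 to 7 when 1 library was left out. The causes were not tested. No member changed direction where it was called. The higher T and NK share of irradiated MC38 was 1.10 points with all barcodes, 4.70 with the cell filter and 5.13 to 8.18 when 1 MC38 library was left out. With the replicate block the count of all genes called after radiation was 1175 in place of 782 over all T and NK cells of Panc02-SIY, 451 in place of 162 in CD8 T cells, 61 in place of 24 in naive or memory T cells and 23 in place of 14 in regulatory T cells. In CD8 and NK cells of Panc02-SIY not every pair of numbers correlated above 0.1. Leaving out 1 library gave 28 to 186 called genes in place of 108 in MC38 and 169 to 1164 in place of 782 in Panc02-SIY, and DESeq2 called 243 in MC38. Finer clusters, in which the Klra1-led cluster was named naive or memory T, called Cd160 in NK cells (−1.14) and in naive or memory T cells (−1.14) of Panc02-SIY after radiation, with 131 and 536 genes called in place of 2 and 24. They also called Entpd1 in NK cells of Panc02-SIY after radiation (0.94).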
